A study of Mus musculus with 2 samples.

Results

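Levels and transcripts of 7 transcription regulators of the adrenocortical lineage, of 55536 genes in the tables, were measured by total RNA-seq of the adrenal gland. The members were taken by symbol and are Nr5a1, Nr0b1, Gata4, Gata6, Cited2, Wt1 and Tcf21. All 7 were found in both libraries. The only group was the adrenal gland of B6CASTF1/J female mice, a first-generation cross of C57BL/6J with CAST/EiJ mice, aged 10 days, with 2 libraries from 300 ng of RNA each. The tissue entries name a different female for each library, while the library entries repeat the same female and both point to the same donor. Whether the libraries came from separate animals therefore cannot be told, and the spread between them may be technical.

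The adrenal cortex arises from the adrenogonadal primordium, a patch of coelomic epithelium that also gives rise to the gonads. Wt1, a zinc finger protein of that epithelium, and the co-regulator Cited2 switch on Nr5a1 there in the mouse. Nr5a1 encodes steroidogenic factor 1 (SF-1), the nuclear receptor that cortical cells need to form and to transcribe genes of steroid synthesis. Nr0b1 encodes DAX-1, a receptor-like protein that represses SF-1 and is itself an SF-1 target. Gata4 and Gata6 encode related zinc finger factors, of which Gata6 marks the cortex and Gata4 the gonadal somatic cells and the heart. Tcf21 encodes a basic helix-loop-helix factor of mesenchyme, found in the adrenal capsule and in kidney podocytes, where Wt1 is also active.

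The gene tables held 35287805 expected counts in replicate 1 and 33068267 in replicate 2. Levels are given as TPM (transcript abundance scaled to a fixed total per library), which corrects for length and so allows genes to be set side by side. SF-1 target genes named for the steroidogenic cortex were abundant, with Hsd3b1 at 1456 and 1424 TPM and Cyp21a1 at 818 and 844 TPM in replicates 1 and 2. Both libraries also held RNA of other tissues at unequal levels. For 12 kidney tubule genes the summed level was 1.68 TPM in replicate 1, against 237 TPM in replicate 2, and that of 8 liver genes was 5647 and 1089 TPM. In whole tissue, fewer cells of a type and less RNA per cell cannot be told apart.

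Wt1 carries a choice of splice sites that changes the protein, and the sequences below show where its transcripts part. Exon 9 ends either with or without the 9 bases at chr2:105170010-105170018 (mm10, plus strand), which give the forms known as +KTS and -KTS, named for a lysine-threonine-serine stretch between zinc fingers. The capitals mark the bases found in the +KTS form only, in the coding sequence of Wt1-205 and Wt1-204 as annotated by GENCODE M21.
Wt1-205, exons 9 and 10: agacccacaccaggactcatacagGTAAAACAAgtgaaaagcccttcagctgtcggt
Wt1-204, exons 9 and 10: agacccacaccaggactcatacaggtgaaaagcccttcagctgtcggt

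Exon 5 of Wt1, 51 bases at chr2:105144142-105144192, is either kept or skipped, and the capitals below mark it between its neighbouring exons.
Wt1-205, exon 5 kept: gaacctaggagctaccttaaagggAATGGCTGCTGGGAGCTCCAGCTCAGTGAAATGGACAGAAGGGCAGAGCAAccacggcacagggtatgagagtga
Wt1-203, exon 5 skipped: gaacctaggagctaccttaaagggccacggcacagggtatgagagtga

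Nr5a1 was the most abundant member, at 72.8 TPM in replicate 1 and 83.1 TPM in replicate 2. Its mean of 78.0 ± 7.27 TPM (SD, n = 2) lay above 94.6% of the 12800 protein-coding genes detected in both libraries, where detected means at least 1 TPM in each. The gene (ENSMUSG00000026751.14) lies on chromosome 2 from 38692656 to 38714542 on the minus strand. An antisense gene within it, Nr5a1os, had 2 and 4 counts.

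Nr0b1 stood far below its partner, at 5.67 TPM in replicate 1 and 4.17 TPM in replicate 2, from 326 and 223 counts. Within each library the log2 ratio of Nr0b1 over Nr5a1 was -3.68 and -4.32, with a mean of -4.00 ± 0.45 (SD, n = 2). The repressor was thus the lower of the pair in both libraries by more than the spread between them. Nr0b1 (ENSMUSG00000025056.4) lies on chromosome X from 86191764 to 86195947 on the plus strand and has 1 annotated transcript. The window before its start is shown because GENCODE gives it only that transcript, and so 1 annotated start. RefSeq's promoter table (GRCm38.p6) covered 3 of the 7 members and places the Nr0b1 start a few bases further downstream. The 239 bases before the annotated start, chrX:86191525-86191763 on the plus strand, hold a TATAAA in capitals, 21 bases before the start.
Nr0b1, before the start: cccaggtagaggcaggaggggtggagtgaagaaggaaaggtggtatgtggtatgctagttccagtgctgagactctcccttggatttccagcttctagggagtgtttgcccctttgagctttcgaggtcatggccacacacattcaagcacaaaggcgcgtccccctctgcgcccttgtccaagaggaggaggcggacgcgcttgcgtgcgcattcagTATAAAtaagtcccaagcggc

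Searched on both strands, TATAAA was in 12.0% of 32851 promoter windows of that length, which end a few bases before their RefSeq starts. The string AAGGTCA, taken for an SF-1 site, was in 3.93% of the windows, and AGATAA, taken for a GATA site, in 9.71%. Neither exact string is in the window shown, but AGGTCA, the first of them without its first base, is. Only exact matches were searched, so the window may hold other forms of these sites.

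Gata6 was the main GATA factor of the cortex pair. It stood at 20.3 TPM in replicate 1 and 19.4 TPM in replicate 2, with 1786 and 1686 counts. Gata4 stood at 0.950 and 0.870 TPM, with 85 and 53 counts, and was the only member below 1 TPM. The log2 ratio of Gata6 over Gata4 was 4.41 and 4.48 within the libraries, with a mean of 4.45 ± 0.04 (SD, n = 2), larger than its spread. Gata4's credibility intervals, as deposited, ran from 0.851 to 1.64 TPM and from 0.718 to 1.62 TPM, so a level of 1 TPM lay within both. Genes of the tissues known for Gata4 were present in part. The 8 heart genes summed to 93.3 TPM in replicate 1 and 17.9 TPM in replicate 2, and 2 were called, both higher in replicate 1. These were Actn2, a sarcomere gene that skeletal muscle also uses, with 6887 and 826 counts, and Myh6, a cardiac myosin gene, with 287 and 31 counts. Actn2 alone was 79.3 and 11.9 TPM, most of the sum in each library. The cardiac factor gene Nkx2-5 had 1 and 0 counts. The 10 gonadal genes summed to 5.37 and 4.85 TPM, most of it Insl3, a peptide hormone gene of gonadal steroid cells, with 63 and 49 counts. Sox9 had 77 and 51 counts and Amhr2 43 and 21, while Foxl2, Fshr and Cyp19a1 had 0 counts in both libraries, which allows up to 3 counts each. None of the 5 gonadal genes tested was called. The part of these tissues in the Gata4 level was not tested. Gata6 lies on chromosome 18 from 11052064 to 11085635 and Gata4 (ENSMUSG00000021944.15) on chromosome 14 from 63198922 to 63271692. The first 504 bases of Gata6 overlap 1010001N08Rik on the other strand, which had 188 and 159 counts. No source used here says whether counting used the strand, so reads in the overlap are uncertain.

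Other GATA genes lay between the pair or below it. Gata2, a factor of blood progenitors and endothelium, stood at 11.0 and 9.95 TPM, and Gata3, a factor of sympathoadrenal cells, at 4.88 and 6.21 TPM. Gata1, which drives red cell formation, was 0.810 and 0.140 TPM, and Gata5 was 0.120 and 0.0700 TPM.

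Cited2, which binds the coactivators CBP and p300 and has no DNA-binding domain of its own, was the second most abundant member. It stood at 22.3 TPM in replicate 1 and 22.7 TPM in replicate 2, and its mean of 22.5 ± 0.276 TPM (SD, n = 2) had the smallest coefficient of variation of the 7, at 1.22%. Within the libraries it lay below Nr5a1 by a log2 ratio of -1.79 ± 0.12 (SD, n = 2). The related Cited1 and Cited4 reached 0.590 and 2.43 TPM in replicate 1 and 0.800 and 1.70 TPM in replicate 2. The coactivator genes Ep300 and Crebbp stood at 22.3 ± 0.495 and 18.4 ± 0.530 TPM (SD, n = 2), close to Cited2 on the same per-length scale. Cited2 (ENSMUSG00000039910.10) lies on chromosome 10 from 17723218 to 17725674.

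Tcf21 and Wt1, the factors of mesenchyme and of coelomic epithelium, were the members that varied most. Tcf21 reached 5.61 TPM in replicate 1 and 10.0 TPM in replicate 2, and Wt1 reached 1.70 and 2.71 TPM. Both were higher in replicate 2, while their ratio stayed close, with a log2 ratio of Wt1 over Tcf21 of -1.72 and -1.89. Their coefficients of variation were 40.0% and 32.4%. Tcf21 (ENSMUSG00000045680.8) lies on chromosome 10 from 22817281 to 22820174, wholly within the antisense gene Gm10824, which had 4 and 5 counts. Wt1 (ENSMUSG00000016458.14) lies on chromosome 2 from 105126529 to 105173616. Its antisense neighbour Wt1os ends 19 bases away and had 13 and 9 counts.

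The order of the mean levels was Nr5a1, Cited2, Gata6, Tcf21, Nr0b1, Wt1 and Gata4. Neighbours in this order were separated in both libraries except Tcf21 and Nr0b1, whose ranges overlap. In replicate 1 alone Nr0b1 lay just above Tcf21, at 5.67 against 5.61 TPM. The order of the means was the same in the other quantification, a second set of transcript estimates deposited for the same reads, where all 7 members reached 1 TPM. Gata4 stood there at 1.45 and 1.56 TPM. Levels of protein-coding genes were generally higher on that scale, by a median of 1.51-fold. With 2 libraries of 1 group there is no pattern across conditions, so no gene was ranked by its likeness to a member.

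**Figure D1:**
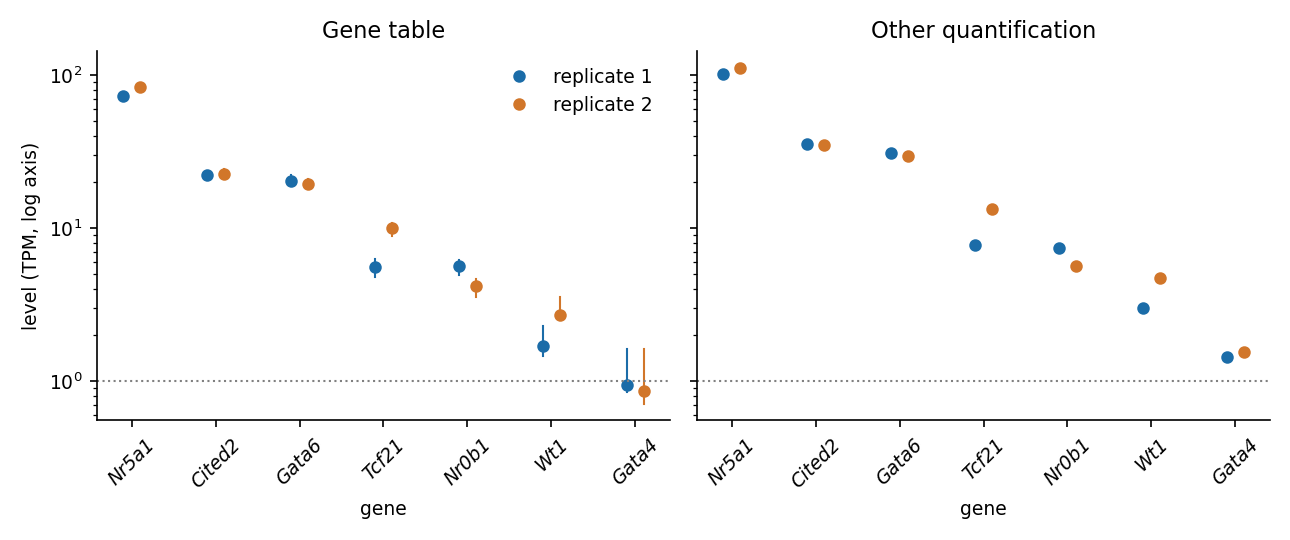
Level of each member in TPM (log axis) in replicates 1 and 2, from the gene table on the left and the other quantification on the right. Points are libraries, bars are the deposited credibility intervals (gene table only) and the dotted line is 1 TPM. Nr5a1 is at the top with 72.8 and 83.1 TPM in the gene table and Gata4 at the bottom with 0.950 and 0.870 TPM.

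The libraries were compared with each other on rounded expected counts. Each gene was tested with an exact two-sided binomial test, with Benjamini-Hochberg adjustment over all 18883 genes with at least 20 counts in sum, and called at an adjusted p of at most 0.05 and at least 2-fold. The test compares these 2 libraries and has no replicate check. All 7 members had enough counts, and 1 was called, Wt1, higher in replicate 2. Over all genes tested 6.85% were called, 4.11% higher in replicate 1 and 2.74% higher in replicate 2. A single call among the members is not set apart from these shares.

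Wt1 had 109 counts in replicate 1 and 197 in replicate 2 and was 2.01-fold higher in replicate 2 (95% interval 1.59 to 2.57, adjusted p = 3.08e-08 by the exact binomial test). The fold sits at the limit of 2. Wt1 was not called with total count scaling or in the other quantification, where its log2 ratios of replicate 1 over replicate 2 were -0.94 and -0.97. Tcf21, with 227 counts in replicate 1 and 373 in replicate 2, was just inside the limit at 1.83-fold higher in replicate 2 (95% interval 1.55 to 2.17, adjusted p = 4.70e-12 by the exact binomial test).

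Nr5a1 and Nr0b1 differed in opposite directions, both well under 2-fold. Nr5a1 was higher in replicate 2, at 6765 counts in replicate 1 and 7182 in replicate 2, with a log2 ratio of -0.24 (adjusted p = 8.84e-22 by the exact binomial test). Nr0b1 was higher in replicate 1, with a log2 ratio of 0.39 (adjusted p = 0.00896 by the exact binomial test). In the other quantification the Nr0b1 log2 ratio was 0.31 and did not pass (adjusted p = 0.0604 by the exact binomial test). Without the fold limit, 4 of the 7 members passed, 1 higher in replicate 1 and 3 higher in replicate 2, where 26.5% of all genes passed. The other 3 did not pass. Gata6 and Cited2 both had log2 ratios of -0.07, with intervals of -0.17 to 0.02 and -0.18 to 0.03. Gata4 had a log2 ratio of 0.52 with an interval of 0.01 to 1.05 (adjusted p = 0.123 by the exact binomial test), so its direction was not resolved at this depth. The median absolute log2 ratio of the members was 0.39, beside 0.15 over all genes tested.

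**Figure D2:**
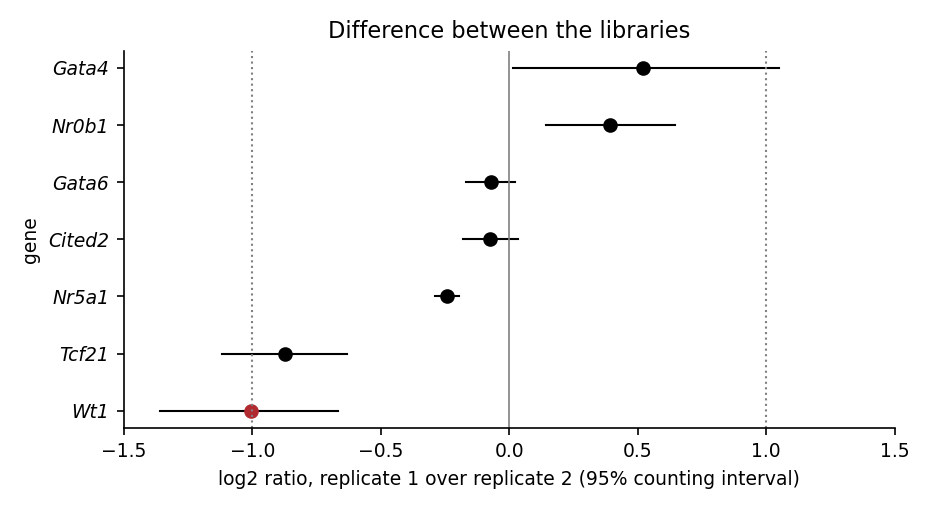
Log2 ratio of replicate 1 over replicate 2 for each member, with exact 95% counting intervals and dotted lines at 2-fold. Wt1 (red, the called gene) lies at -1.01 and Tcf21 at -0.87, while Gata6 and Cited2 both lie at -0.07.

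Markers of other cells that use Wt1 or Tcf21 were set beside them. Of 10 podocyte genes 3 were called, all higher in replicate 2, and the list median log2 ratio was -0.41, beside 0.01 over all genes tested. Nphs1, the nephrin gene, had 0 and 192 counts, and was at least 71.3-fold lower in replicate 1, taking 3 counts in that library as the limit. Ptpro, a receptor phosphatase gene, had 94 and 281 counts and was 3.32-fold higher in replicate 2. In replicate 1, Nphs1 had 0 counts, Wt1 109 counts and Tcf21 227 counts. Which cells the Wt1 and Tcf21 counts came from was not tested. The summed podocyte list was 192 and 189 TPM, and most of it was Cdkn1c, an imprinted growth inhibitor gene, at 149.7 and 127 TPM, followed by Podxl and Synpo at 18.7 ± 5.25 and 10.7 ± 0.997 TPM (SD, n = 2).

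All 12 kidney tubule genes were called higher in replicate 2. Their median was -7.57. It was -7.13 when Slc22a6, which had no count in replicate 1, took 3 counts there. Emx2, a homeobox gene of the developing urogenital tract, had 2 and 86 counts, a ratio of 38.6-fold (95% interval 12.9 to 402), and was the 1 call among 22 tested genes of the adrenogonadal list. The part of kidney RNA in the Wt1 and Tcf21 differences was not tested.

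Mesothelial genes, which mark the coelomic lining where Wt1 is expressed, were nearly level. Of 8 such genes 1 was called, Krt7, a keratin of many epithelia, with 100 and 263 counts, 2.92-fold higher in replicate 2. The list median was 0.04. Its most abundant genes were Msln at 6.27 and 5.89 TPM and Upk3b at 4.35 and 4.00 TPM. None of 10 capsule and stroma genes was called, with a median of -0.18 and 9 of the 10 below 0. Col1a1, a fibrillar collagen gene, stood at 252 and 408 TPM and Col1a2 at 181 and 267 TPM.

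**Figure D3:**
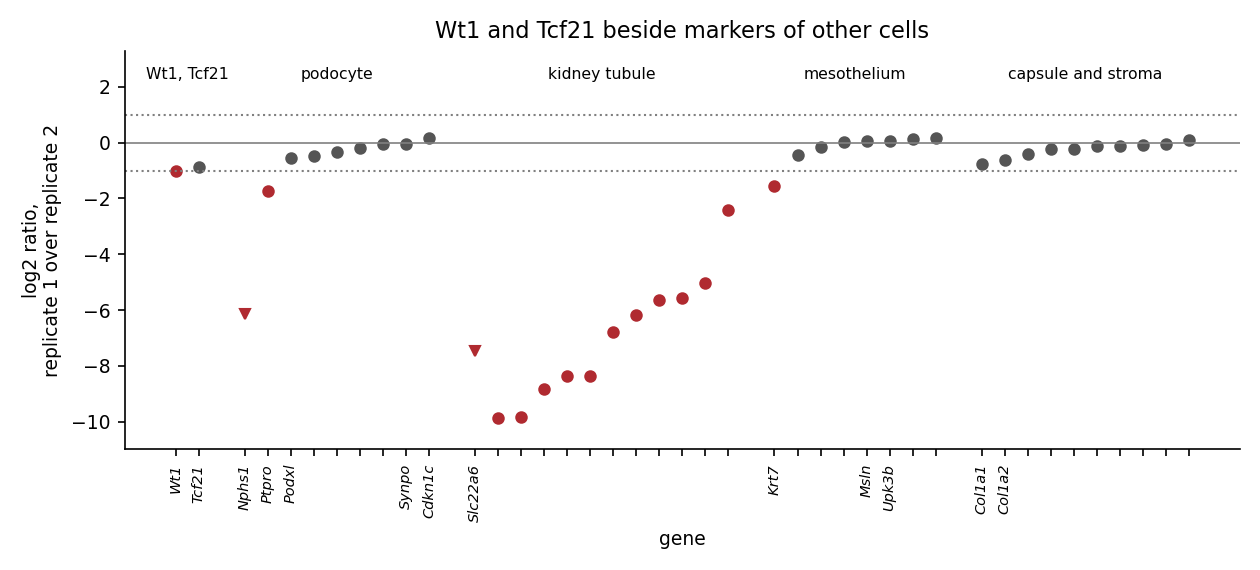
Log2 ratio of replicate 1 over replicate 2 for Wt1 and Tcf21 and for genes of 4 marker lists, of which those named in the text are labelled and 1 podocyte gene is left out. Red points are called genes, dotted lines mark 2-fold, and triangles show genes with 0 counts in replicate 1, set at the limit of 3 counts. All 12 kidney tubule genes and 2 of the podocyte genes shown lie below the lower line, as do Wt1 and the mesothelial gene Krt7. Tcf21, the other mesothelial genes and the stroma genes do not.

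Partners and targets of the members were then compared between the libraries, where 6.85% of all genes tested were called. Of the 22 tested regulators of the adrenogonadal list, none besides Emx2 was called and the median was 0.00. Among its abundant genes were the corepressor gene Ctbp1 at 73.5 ± 3.20 TPM and a further corepressor gene, Ncor1, at 59.3 ± 0.375 TPM (SD, n = 2). The gonadal factor gene Lhx9 had 3 counts in each library. Of 15 SF-1 target genes 2 were called, both higher in replicate 2, and 14 of the 15 lay below 0 with a median of -0.14, beside 0.01 over all genes tested. Lists of other cells lay below 0 as well, with 8 of 8 adipocyte genes (median -0.24) and 7 of 8 endothelial genes (median -0.12). The called genes were Akr1b7, an aldo-keto reductase gene, at 47.3 and 123 TPM, and Cyp17a1, the 17-alpha-hydroxylase gene, at 0.440 and 1.71 TPM. Star, the cholesterol carrier gene, stood at 572 and 824 TPM without reaching 2-fold.

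Of 13 relatives of the members 3 were called, beside 6.85% of all genes tested. None of these 3 reached 1 TPM in both libraries. Gata1, with 49 and 8 counts, was 5.23-fold higher in replicate 1, where 4 of 9 red cell genes were also called higher and the red cell list summed to 4644 TPM, against 2740 TPM in replicate 2. Msc, a relative of Tcf21, had 71 and 25 counts and was 2.52-fold higher in replicate 1. Tcf23, another relative, had 18 and 45 counts and was 2.74-fold higher in replicate 2. The most abundant relatives were Egr1, a zinc finger gene related to Wt1, at 8.87 and 13.6 TPM, Gata2, and Tcf15 at 9.51 and 8.68 TPM. Nr5a2 and Nr0b2, the closest paralogs of Nr5a1 and Nr0b1, stood at 1.95 ± 0.0849 and 6.62 ± 0.361 TPM (SD, n = 2), so Nr0b2 lay above Nr0b1 in both libraries and Nr5a2 far below Nr5a1.

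Which transcripts carried the members was then described. Nr5a1 has 3 annotated transcripts. Nr5a1-201 and Nr5a1-202 share the same 1386-base coding sequence and differ in the first exon, which lies from 38714357 to 38714542 in Nr5a1-201 and from 38712006 to 38712234 in Nr5a1-202. The quantifications gave opposite answers. By the first, on which the gene table rests, Nr5a1-201 held 78.8% of Nr5a1 TPM in replicate 1 and 76.9% in replicate 2, and Nr5a1-202 held 10.6% and 12.8%. By the other, Nr5a1-201 held 16.5% and 8.78%, and Nr5a1-202 held 73.5% and 81.7%. By the other quantification the libraries themselves differed in the Nr5a1-201 share, yet the gap between the quantifications was larger than the difference between libraries within either. The retained-intron transcript Nr5a1-203 held 10.7% and 10.3% by the first and 9.93% and 9.57% by the other. Among 5730 protein-coding genes with several transcripts and at least 10 TPM throughout, the top transcript differed in 26.3%. In 1.55% it differed with at least 70% of the gene in each top transcript, as in Nr5a1. Which start these glands use for Nr5a1 cannot be read from these tables.

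**Figure D4:**
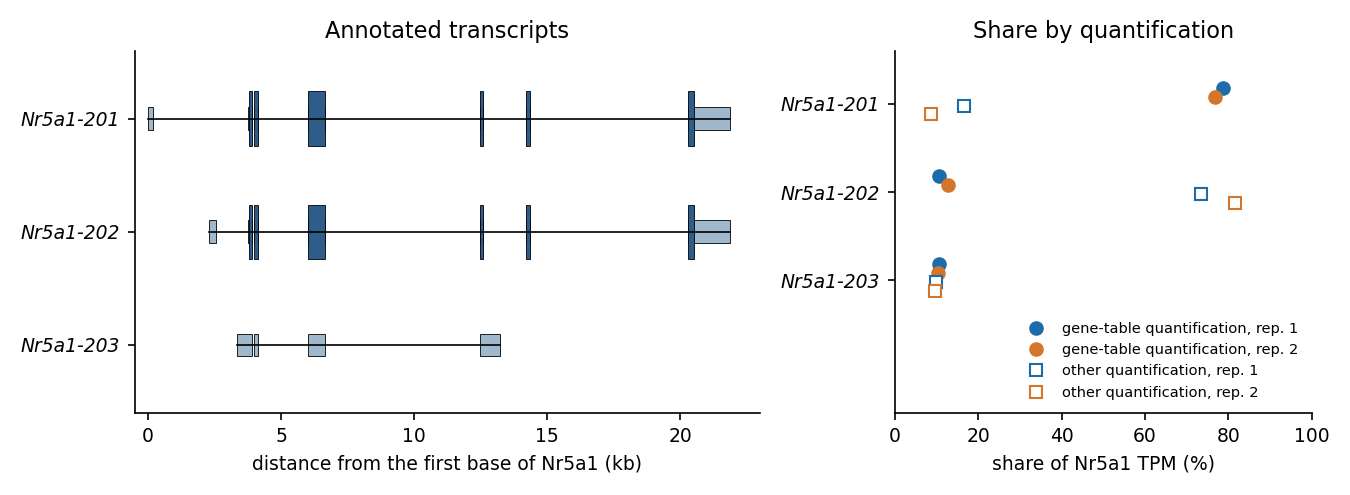
Left, the annotated Nr5a1 transcripts by distance from the first base of the gene in kb, with coding sequence as tall dark boxes. Right, the share of Nr5a1 TPM in each transcript (%), with filled points for the quantification behind the gene table and open squares for the other. Nr5a1-201 lies at 78.8% and 76.9% by the first and at 16.5% and 8.78% by the other.

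Wt1 was spread over 9 annotated transcripts. Transcripts with the 9 extra bases of exon 9 held 63.5% of Wt1 TPM in replicate 1 and 62.4% in replicate 2, and those without them 18.8% and 21.8%. The remainder lay in retained-intron transcripts, at 17.6% and 15.9%. By the other quantification the shares with the extra bases were 64.2% and 47.3% and those without 11.6% and 26.9%. Annotated transcripts with the extra bases thus held the larger share in both libraries by either. They number 5, against 2 without, and the shares are of whole transcripts, not of reads over exon 9. The credibility intervals of Wt1-205, with the extra bases, and Wt1-204, without them, overlapped in both libraries, so the ratio of the 2 splice forms was not settled. Transcripts with exon 5 held 35.9% in replicate 1 and 52.0% in replicate 2, and coding transcripts without it 46.5% and 32.1%, so the larger class differed between the libraries. Wt1-205, the transcript with the highest mean share, was 0.260 and 1.16 TPM, with credibility intervals of 0.0812 to 0.503 and 0.532 to 1.31 TPM. In replicate 1 alone Wt1-201 held more, at 27.7% against 15.4%. Coding transcripts that begin at the downstream first exon held 27.6% and 17.0% by the first quantification and 7.47% and 0.0438% by the other. With 109 and 197 counts for the whole gene, these divisions are imprecise.

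**Figure D5:**
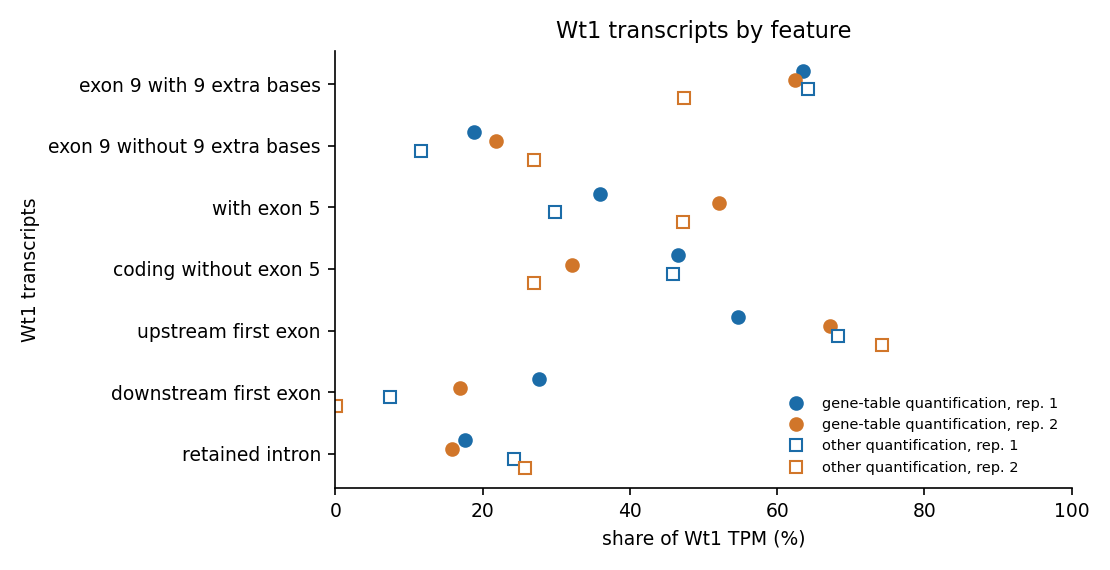
Share of Wt1 TPM (%) in transcripts grouped by exon 9, exon 5, first exon and intron retention. Filled points are the quantification behind the gene table and open squares the other. Transcripts with the 9 extra bases lie at 63.5% and 62.4% by the first and at 64.2% and 47.3% by the other.

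Gata4 transcripts could not be ranked at this depth. Gata4-202 held 72.1% of the gene in replicate 1 and 26.8% in replicate 2, and Gata4-204, a short transcript, held 2.23% and 48.2%. Gata4-201 and Gata4-202 differ in part by 3 bases at the start of exon 3, shown in capitals, which lie within the coding sequence.
Gata4-201, exons 2 and 3: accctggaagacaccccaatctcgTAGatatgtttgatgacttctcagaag
Gata4-202, exons 2 and 3: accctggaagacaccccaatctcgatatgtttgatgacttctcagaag

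Gata4-201 was listed at 0 and 0.210 TPM, and its credibility intervals overlapped those of Gata4-202 in both libraries.

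The other members were simpler. Gata6-201, the full-length coding transcript, held 71.6% and 77.0% of Gata6, and 3 retained-intron transcripts together 18.8% and 16.6%. Cited2-201, the spliced transcript, held 91.4% and 91.6%, and the unspliced Cited2-203 with the same 807-base coding sequence 8.58% and 8.43%. Tcf21-201 held 93.6% and 95.9%. The other quantification gave Gata6-201 69.7 ± 2.17%, Cited2-201 90.9 ± 0.0831% and Tcf21-201 93.3 ± 0.431% (SD, n = 2), so the top transcript was the same by both.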

How the data were processed

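Per the labels, total RNA of adrenal glands was made into directional libraries after ribosomal RNA reduction, with ERCC spike-ins. Notes deposited with the files name mm10 and annotation M21. The aligner, the quantifiers, strand use and the treatment of CAST variants are not stated there or in the labels. The authors deposited expected counts, TPM, credibility bounds of TPM (a signal range) and the percent of each gene in each transcript, with RSEM's column names, and a second transcript table of estimated counts and TPM with kallisto's. All 55536 gene IDs matched the annotation. ERCC sequences (0.979% and 0.929% of counts) and 26248 numbered features (1.96e-05% and 1.80e-05%) were kept out of library sizes and every test.

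Expected counts were rounded and scaled by TMM in edgeR 4.0.16 (R 4.3.3), and tested in Python 3.11.15 with scipy 1.17.1. A prior count of 0.5 entered each log2 ratio, taken as replicate 1 over replicate 2. With 1 group no quasi-likelihood contrast exists, and flipping signs over 2 libraries gives an exact p of at least 0.5. Intervals are exact Clopper-Pearson on the counts of the 2 libraries and cover counting error only. No molecular identifiers are stated, so reads copied in amplification may be counted more than once and the intervals may be too narrow. The test was checked on simulated data that held counting error only. That check cannot show how the test behaves where libraries differ by more than counting error. Alternatives were other scalings (total counts, DESeq2 1.42.0 size factors), filters, fold limits, prior counts, the other quantification and each library left out.

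Members and lists were chosen with earlier results of these data known. Named genes are the members, their main transcripts, and the most abundant and the called genes of the lists set beside them, of which some are not reported here. Lists of chromaffin, fat, endothelial, macrophage, muscle, gonad and heart genes served as context.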

Additional observations from a re-analysis of the deposited data

How the results depend on the processing

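The count of genes differing between the libraries, 1294, was 5007 without the fold limit and stayed within 1.5 times under the other alternatives run. Of the members, 0 were called with total count scaling and in the other quantification, where 1344 and 1264 of all genes were called. At a fold limit of 1.5, 2 members were called, beside 1837 of all 18883 genes tested. With no limit 4 members were called, beside 26.5% of all genes tested. The Wt1 log2 ratio ran from -1.01 to -0.94 over 4 alternatives, and with a prior count of 5 it was -0.98 and also missed the limit of 2. None of the members' log2 ratios of counts changed sign in any alternative run, but those of Gata6 and Cited2 came to -0.01 with total count scaling. In TPM, Gata6 was higher in replicate 1 by both quantifications, against its count ratio. By the other quantification, TPM also went against the count ratio for Gata4 (1.45 and 1.56) and Cited2 (35.4 and 35.0). Nr5a1, Nr0b1, Wt1 and Tcf21 had the same direction in counts and in TPM. Leaving out a library kept 5 to 6 of the 6 neighbouring pairs in order. In the other quantification the log2 ratio of Gata6 over Gata4 was 4.33, of Cited2 over Nr5a1 -1.60 and of Wt1 over Tcf21 -1.43. Its mean shares were 77.6% for Nr5a1-202, 12.7% for Nr5a1-201, 9.75% for Nr5a1-203, 69.7% for Gata6-201, 90.9% for Cited2-201 and 55.7% for Wt1 with the extra bases of exon 9. The cause was not tested. Rescaled over protein-coding genes, all levels were higher, with Nr5a1 at 234 and Gata4 at 2.73 TPM. Low counts limit Gata4 and the transcripts of Wt1. No paired analysis was possible because there is only 1 group.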

Other observations

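Lists with no member among them differed in how far the libraries lay apart. None of 10 chromaffin, 8 fat, 8 endothelial and 8 macrophage genes was called, with median log2 ratios of replicate 1 over replicate 2 of 0.09, -0.24, -0.12 and 0.20. All 8 liver genes were called higher in replicate 1, with a median of 2.34, as were 6 of 8 skeletal muscle genes, with 1 higher in replicate 2 and a median of 1.57. Of 5 tested heart genes 2 were called higher in replicate 1, with a median of 0.83, and of 5 tested gonadal genes none was called. The red cell median was 0.82.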
